A study of Mus musculus with 8 samples.

Results

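Mitochondrial ribosomal proteins were followed in mouse brains with green fluorescent protein (GFP) alone or with its fusion to 100 glycine-arginine repeats (GFP-GR100). Members were taken by name, as every gene whose deposited symbol is Mrpl or Mrps, a number and at most 1 letter, and whose counts over the 8 libraries summed to 100 or more. This gave 77 of the 43346 genes in the table, 48 named for the large subunit (Mrpl) and 29 for the small subunit (Mrps). RNA came from cortex and hippocampus at an age of 1.5 months, with 4 mice per group, 2 females and 2 males in each, and 1 library per mouse. GFP 1, GFP 2, GFP-GR100 1 and GFP-GR100 2 were females, and the libraries numbered 3 and 4 were males. Values of single libraries are given in the order 1 to 4 within each group. In GFP-GR100 the repeats were joined in frame to enhanced GFP in an adeno-associated virus vector plasmid, and both groups carried GFP. The promoter, the route of delivery and the mouse strain were not given in the sources used here. Poly(GR) is a dipeptide repeat protein produced from the repeat expansion of C9orf72 that causes familial frontotemporal dementia and amyotrophic lateral sclerosis.

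The mitochondrial ribosome translates the messenger RNAs of the mitochondrial genome, which encode core subunits of the respiratory chain. Its RNAs come from that genome, whereas all its proteins are encoded in the nucleus, made on cytosolic ribosomes and imported. Some of its proteins are homologues of bacterial ribosomal proteins and others occur only in mitochondria, and defects in several of them cause inherited mitochondrial disease that often affects the brain. Neurons depend on the respiratory chain for most of their energy.

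Total counts ran from 65880460 to 89113010 per library, and a member had between 479 and 11251 counts in a library. All 77 members passed the filter on low counts, among 20987 genes tested. Loci that carry ribosomal RNA sequence took 3.54% to 11.4% of counts in GFP libraries and 2.76% to 9.83% in GFP-GR100 libraries. This share was highest in the GFP females and the GFP-GR100 males. All 7 markers of excitatory neurons and all 6 of the hippocampus were detected, with summed levels of 3784 to 5684 CPM and 171 to 250.1 CPM. CPM are counts relative to the library size, adjusted by the trimmed mean of M-values (TMM).

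The members lie on 17 chromosomes, with the most on chromosome 11 (10 genes), chromosome 17 (8 genes) and chromosome 6 (7 genes). A protein-coding gene on the opposite strand started within 1000 bases of 33 members, or 42.9%, against 10.9% of the 21951 protein-coding genes of GENCODE release M21. Mrps12 faces Sars2, the mitochondrial seryl-tRNA synthetase, with starts 172 bases apart, and Mrpl36 faces the complex I subunit Ndufs6 at 29 bases. Mrpl46 and Mrps11, one protein from each subunit, face each other at 412 bases.

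RefSeq promoters on GRCm38.p6, which run from 250 bases before to 50 bases after a gene's start, were found for 68 members, with 74 promoters in all. Motifs of 3 regulators known to bind promoters of nuclear genes for mitochondrial proteins were searched on both strands, along with the TATA box, and no match overlapped one of another kind in a member's promoter. The NRF1 letters, GCGCA and GCGC with any base between them, were present in 13 member promoters (17.6%) against 4.60% of 32851 promoters. The ETS letters CCGGAAG, read by GABP, were in 25 (33.8%) against 8.86%. The YY1 letters AAGATGGCG were in 8 (10.8%) against 1.40%, and the TATA letters TATAAA in 5 (6.76%) against 13.6%. NRF1 or ETS letters were in 45.9% of member promoters and in 12.6% of all promoters. The share was 25.1% in the 9690 promoters with a GC content of 60% or more. It was also 45.5% in 66 promoters of respiratory chain subunits and 42.6% in 68 promoters of cytosolic ribosomal proteins. YY1 letters were in 10.6% and 7.35% of these. The letters are thus not particular to the members. NRF1 letters were in 21.3% of large subunit and 11.1% of small subunit promoters, and ETS letters in 29.8% and 40.7%. A match describes these letters in this window and is not a binding site.

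Promoters are printed 5′ to 3′ on the gene's strand for Mrps12, Mrps27 and Mrps7, which were called lower in the comparison within males. Those of Mrpl12 and Mrpl36 are examples with NRF1 and YY1 letters. Mrpl4 is a further member called in that comparison. Capitals mark ETS letters in Mrps12, ETS and then YY1 letters in Mrps27, NRF1 letters in Mrpl12 and YY1 letters in Mrpl36, read on either strand, and Mrps7 holds none of the 3. The windows are chr7:28741772-28742071 (minus strand), chr13:99344536-99344835, chr11:115603890-115604189, chr11:120484387-120484686 and chr13:73330759-73331058 (plus strand), in the order below.
Mrps12: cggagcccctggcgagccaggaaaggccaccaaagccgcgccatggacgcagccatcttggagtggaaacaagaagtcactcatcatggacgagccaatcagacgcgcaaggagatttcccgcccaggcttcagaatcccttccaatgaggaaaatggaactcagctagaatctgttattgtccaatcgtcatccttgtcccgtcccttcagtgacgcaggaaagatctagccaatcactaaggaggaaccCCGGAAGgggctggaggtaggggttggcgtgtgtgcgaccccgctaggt
Mrps27: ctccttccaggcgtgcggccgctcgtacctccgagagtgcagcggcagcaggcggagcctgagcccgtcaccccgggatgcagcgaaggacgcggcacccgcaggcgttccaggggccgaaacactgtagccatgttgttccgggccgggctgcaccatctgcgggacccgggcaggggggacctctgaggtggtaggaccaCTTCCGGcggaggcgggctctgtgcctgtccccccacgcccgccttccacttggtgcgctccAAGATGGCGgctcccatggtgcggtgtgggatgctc
Mrps7: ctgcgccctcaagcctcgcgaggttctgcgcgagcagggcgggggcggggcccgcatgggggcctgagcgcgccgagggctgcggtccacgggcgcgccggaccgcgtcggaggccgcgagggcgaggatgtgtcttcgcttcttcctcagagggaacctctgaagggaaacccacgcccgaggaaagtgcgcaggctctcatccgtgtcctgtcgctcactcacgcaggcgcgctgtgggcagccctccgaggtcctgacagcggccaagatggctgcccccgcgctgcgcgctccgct
Mrpl12: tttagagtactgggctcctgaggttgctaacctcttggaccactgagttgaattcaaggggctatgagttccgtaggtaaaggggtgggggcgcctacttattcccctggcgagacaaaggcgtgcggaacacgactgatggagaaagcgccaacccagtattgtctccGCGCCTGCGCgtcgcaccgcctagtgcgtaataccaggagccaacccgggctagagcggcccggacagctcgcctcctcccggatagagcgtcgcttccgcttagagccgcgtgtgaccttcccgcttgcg
Mrpl36: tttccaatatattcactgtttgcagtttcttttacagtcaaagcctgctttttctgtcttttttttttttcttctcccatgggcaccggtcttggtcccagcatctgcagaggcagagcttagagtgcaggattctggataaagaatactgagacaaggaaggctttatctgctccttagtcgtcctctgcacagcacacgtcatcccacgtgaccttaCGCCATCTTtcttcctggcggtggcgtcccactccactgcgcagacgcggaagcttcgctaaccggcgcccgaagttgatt

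Transcripts of the mitochondrial ribosome were present at moderate and unequal levels. On the deposited RPKM scale, which corrects for gene length, the members' mean over 8 libraries ran from 2.48 to 44.6, an 18-fold range, with a median of 14.5. The median was 3.72 RPKM over all tested genes, 69.5 over 74 respiratory chain subunits and 74.6 over 79 cytosolic ribosomal proteins. Factors that assemble the mitochondrial ribosome had a median of 4.70 RPKM (25 genes), and mitochondrial translation factors 6.89 RPKM (15 genes).

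Large subunit members had a median level of 16.9 RPKM and small subunit members 12.4 RPKM. The highest in the large subunit were Mrpl42 (44.6 ± 9.21 RPKM, SD, n = 8), Mrpl52 (41.6 ± 8.76 RPKM) and Mrpl41 (40.3 ± 6.11 RPKM), all proteins without a bacterial counterpart. These 3 lay within each other's spread. The lowest were Mrpl15 (2.99 ± 0.476 RPKM), Mrpl13 (3.04 ± 0.500 RPKM) and Mrpl1 (3.21 ± 0.267 RPKM), homologues of the bacterial proteins of the same number.

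In the small subunit the highest levels were those of Mrps16 (31.8 ± 5.82 RPKM, SD, n = 8), a homologue of bacterial S16, Mrps33 (30.6 ± 5.10 RPKM), a mitochondrial addition, and Mrps12 (29.5 ± 7.03 RPKM), the decoding-centre protein. The lowest were Mrps35 (2.48 ± 0.295 RPKM), Mrps10 (2.62 ± 0.306 RPKM) and Mrps22 (3.65 ± 0.546 RPKM), of which Mrps22 and the abundant Mrps16 are both mutated in human disease of mitochondrial translation. Members thus differed several-fold in RPKM, beyond the spread between mice. This order depends on the listed gene length by which RPKM divides, 8487 bases for Mrpl15 and 412 for Mrpl52. The 46 members with a bacterial homologue and the 30 without had median levels of 14.8 and 15 RPKM.

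**Figure D1:**
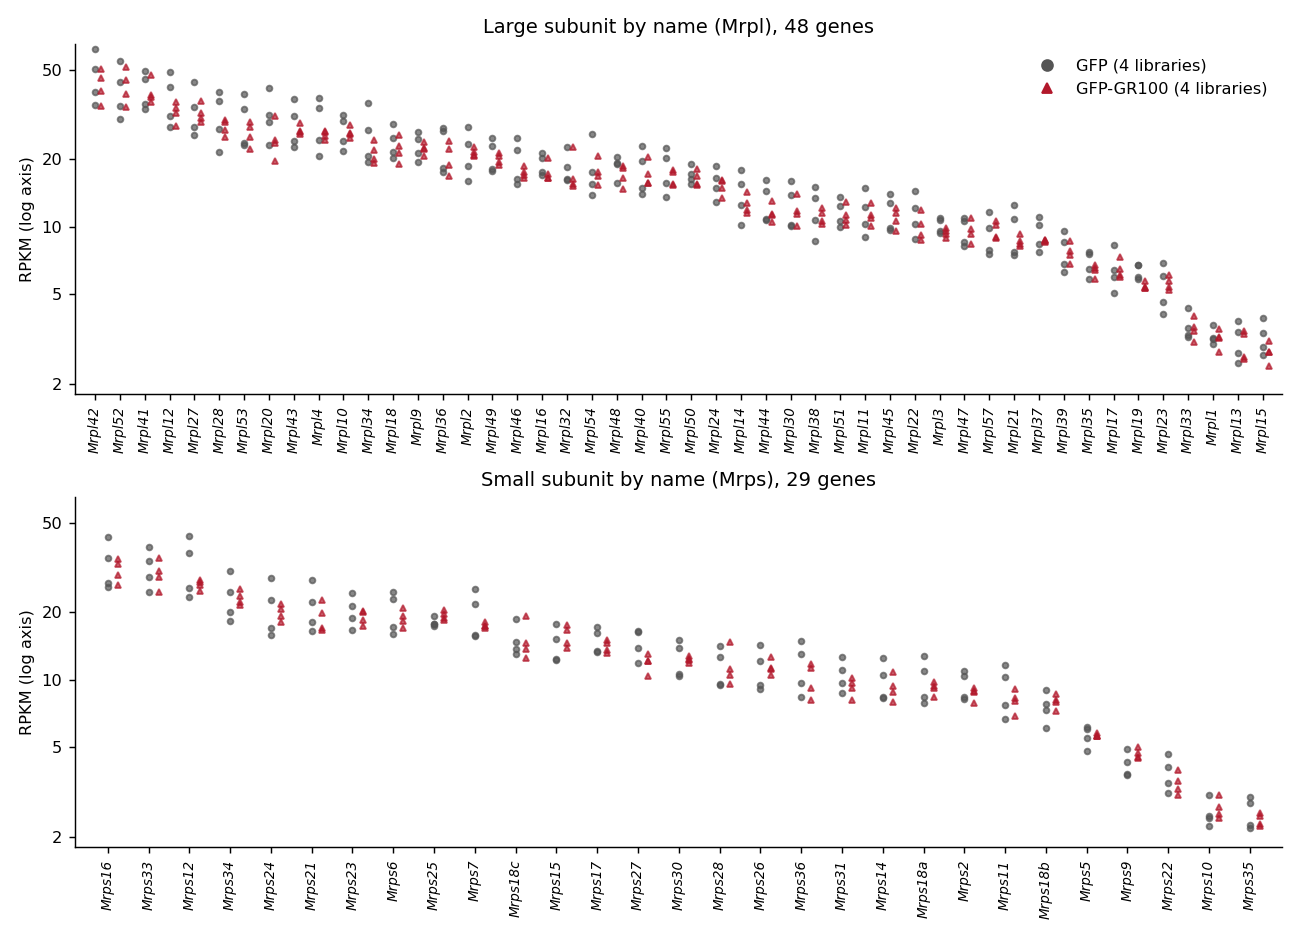
Deposited RPKM (log axis) of each member in each library, ordered by mean level, for the large subunit (top) and the small subunit (bottom), with grey circles for GFP and red triangles for GFP-GR100. Mean levels run from 2.48 to 44.6 RPKM, and the 2 groups overlap for most genes.

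The ratio of summed large to summed small subunit RPKM was 2.08, 2.02, 2.04 and 2.06 in the GFP libraries and 2.0, 2.02, 2.07 and 2.02 in the GFP-GR100 libraries. The groups overlapped in this ratio, which stayed in a narrow band in all 8 libraries. The sums themselves differed far more. Large subunit transcripts summed to 710.5, 739.2, 1074 and 936.2 RPKM in the GFP libraries and to 784.2, 725.6, 905.4 and 809.4 RPKM in the GFP-GR100 libraries, and were highest in GFP 3 and GFP 4.

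The members moved together from library to library, in both subunits. Each member's log2 CPM was set against its mean over the 8 libraries, and the median of these deviations was taken per library. It was -0.13, -0.11, 0.34 and 0.17 in the GFP libraries and -0.10, -0.23, 0.11 and -0.05 in the GFP-GR100 libraries. GFP 3 held the highest level of the 8 libraries for 66 of 77 members, and GFP-GR100 2 the lowest for 50. Large and small subunit medians lay close in each library, for example 0.35 and 0.33 in GFP 3 and -0.23 and -0.23 in GFP-GR100 2. The respiratory chain subunits had a similar order (0.38 in GFP 3 and -0.26 in GFP-GR100 2). The cytosolic ribosomal proteins were also highest in GFP 3 (0.39) but lowest in GFP 1 (-0.24). Their medians in GFP-GR100 3 (0.29) and GFP-GR100 4 (0.10) lay above that in GFP 4 (0.03), whereas the members were higher in GFP 4.

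**Figure D2:**
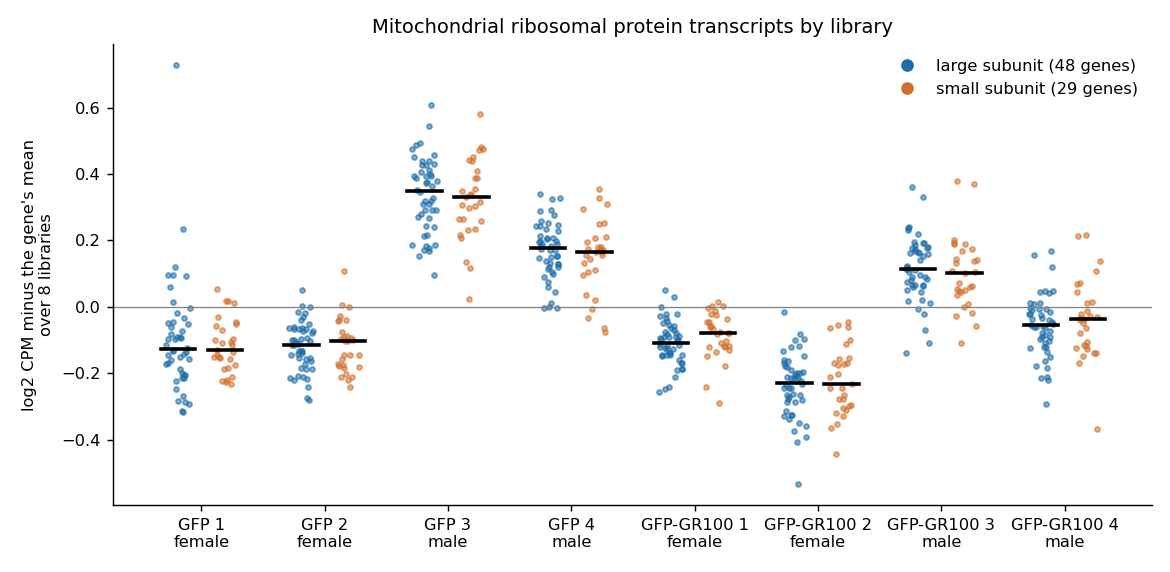
Log2 CPM of each member minus its mean over 8 libraries, by library and sex, with large subunit members in blue, small subunit members in orange and black bars for medians. Both subunits are highest in GFP 3, with medians of 0.35 and 0.33, and lowest in GFP-GR100 2, with medians of -0.23.

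The first comparison set GFP-GR100 against GFP, with sex in the model. None of the 77 members passed the threshold in either direction (edgeR quasi-likelihood test, Benjamini-Hochberg adjusted over all tested genes, threshold 0.05), where 2.19% of tested genes were called higher and 0.324% lower. Most members nevertheless lay slightly below GFP: the log2 fold change was under 0 for 69 of 77 (89.6%), against 54.6% of tested genes, with a median of -0.14 against -0.02. At an unadjusted p under 0.05, 14 members were lower and 0 higher, where 7.37% of tested genes were lower and 8.23% higher. The number lower at that p depended on the setting. It was 5 with a minimum mean of 1 CPM and 3 with no sex covariate. With limma-trend on log2(RPKM + 0.1) it was 2, and 61 members were under 0. Their median was then -0.08, beside 0.04 over all tested genes. It was 23 with the share of counts at ribosomal RNA loci as covariate, 17 without GFP 1 and 16 without GFP 2. A trend on gene length as offset gave 15, and the remaining alternatives gave 2 to 13. The share of all tested genes lower at that p was not taken under the alternatives, so these counts cannot be set against it. DESeq2 called 1 member lower and limma-voom 0, where 0.953% and 0.338% of tested genes were called lower. CPM are relative to all RNA counted, and in bulk tissue fewer cells of a type and less RNA per cell cannot be told apart.

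The difference between the subunits was described and not tested. The median log2 fold change was -0.14 over the large subunit, with 45 of 48 members under 0 and 9 with an unadjusted p under 0.05. It was -0.15 over the small subunit, with 24 of 29 under 0 and 5 at that p. With Mrps18a and Mrps30 moved to the large subunit, where they sit in the assembled ribosome, and Mrps36 left out, the medians were -0.14 and -0.15. Members with a bacterial homologue had a median of -0.15 and those without one -0.13. The shift rested in part on 1 control library: without GFP 3 the median over all members was -0.07, with 57 under 0. Without GFP 3 and GFP-GR100 4, the median was -0.03 and 48 were under 0. The medians over all tested genes were -0.0023 and -0.0015 in these fits, against -0.02 with all libraries.

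Mrpl19, a homologue of bacterial L19 at the interface of the subunits (ENSMUSG00000030045, chr6:81957851-81965958 on mm10), had the smallest p of any member. Its level was 34.7, 33, 36.3 and 37.0 CPM in the GFP libraries and 30.2, 27.8, 29.0 and 28.8 CPM in the GFP-GR100 libraries. Every GFP-GR100 library lay below every GFP library. The mean went from 35.2 ± 1.77 to 28.9 ± 0.970 CPM (SD, n = 4 each), a log2 fold change of -0.28 (SE 0.077) with an edgeR adjusted p of 0.0836, which missed the threshold. The gene overlaps Gcfc2 on the opposite strand, and whether counting used strand was not given in the sources used here. DESeq2 called Mrpl19, at -0.28 with an adjusted p of 0.0401.

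Mrps27, a mitochondria-specific pentatricopeptide repeat protein of the small subunit (ENSMUSG00000041632, chr13:99344786-99415561), was the other member whose groups did not overlap. It stood at 23.8, 26.2, 29.9 and 30.5 CPM in the GFP libraries and 23.5, 21.5, 22.5 and 18.8 CPM in the GFP-GR100 libraries. The lowest GFP library and the highest GFP-GR100 library were close to each other. The log2 fold change was -0.35 (SE 0.104, edgeR adjusted p 0.121). That 2 of 77 members lay below all GFP libraries compares with 3.03% of tested genes, and 0 members lay above them, against 5.03%.

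The next members by p were Mrpl15 and Mrpl34 in the large subunit and Mrps12 and Mrps36 in the small. Mrpl15 had 24.8, 25.1, 33 and 28.6 CPM in the GFP libraries and 22.7, 19.6, 26.3 and 23.0 CPM in the GFP-GR100 libraries, a log2 fold change of -0.28 (SE 0.090, edgeR adjusted p 0.157). Mrpl34, a small protein homologous to bacterial L34, had 13.5, 13.5, 22.6 and 17.5 CPM against 12.5, 11.8, 15.7 and 14 CPM, or -0.29 (SE 0.108, adjusted p 0.218). In both genes GFP 3 was highest and the groups overlapped. Mrps36, which has been reassigned from the ribosome to the 2-oxoglutarate dehydrogenase complex, had 11.7, 12.6, 18.8 and 16.7 CPM against 11.4, 9.93, 14.9 and 14.2 CPM, or -0.24 (SE 0.094, adjusted p 0.252). Within each sex its GFP-GR100 libraries lay below the GFP libraries.

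Mrpl12 forms the flexible stalk that recruits translation factors and also binds the mitochondrial RNA polymerase. It had 46.1, 48.4, 73.6 and 64.1 CPM in the GFP libraries and 47.7, 41.2, 54.8 and 50.8 CPM in the GFP-GR100 libraries, a log2 fold change of -0.24 (SE 0.094, edgeR adjusted p 0.252). Both GFP males were above all other libraries. Mrpl20 had the lowest fold change of the 77, -0.43, but with an SE of 0.223 (adjusted p 0.393). It was looked at after its values were seen: GFP 1 had 75.1 CPM and the other GFP libraries 39.1 to 51.5 CPM, against 31.3 to 51.4 CPM in GFP-GR100.

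The 8 members with a fold change above 0 were all close to GFP. Mrps9, a protein of the small subunit head, was the highest, at 23.7 ± 2.35 CPM in GFP and 25.3 ± 1.88 CPM in GFP-GR100 (SD, n = 4 each), or 0.10 (SE 0.081, edgeR adjusted p 0.562). Mrps15 was at 0.07 (SE 0.081), Mrps25 at 0.03 (SE 0.077), Mrpl57 at 0.02 (SE 0.087), Mrpl23 of the exit tunnel at 0.01 (SE 0.107) and Mrpl52 at 0.00 (SE 0.101). Their adjusted p ran from 0.717 to 0.990. A p that misses the threshold does not show that levels were equal.

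The members of the S18 family differ in their place in the ribosome. Mrps18c holds the position of bacterial S18, and its log2 fold change was -0.07 (SE 0.122). Mrps18b, elsewhere in the small subunit, was at 0.02 (SE 0.092). Mrps18a, which sits in the large subunit, was at -0.16 (SE 0.091), from 37.5 ± 7.28 to 33.2 ± 2.77 CPM (SD, n = 4 each). None passed the test, with edgeR adjusted p of 0.811, 0.930 and 0.411. Mrps30, named for the small subunit but placed in the large, was at -0.07 (SE 0.093, adjusted p 0.751).

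**Figure D3:**
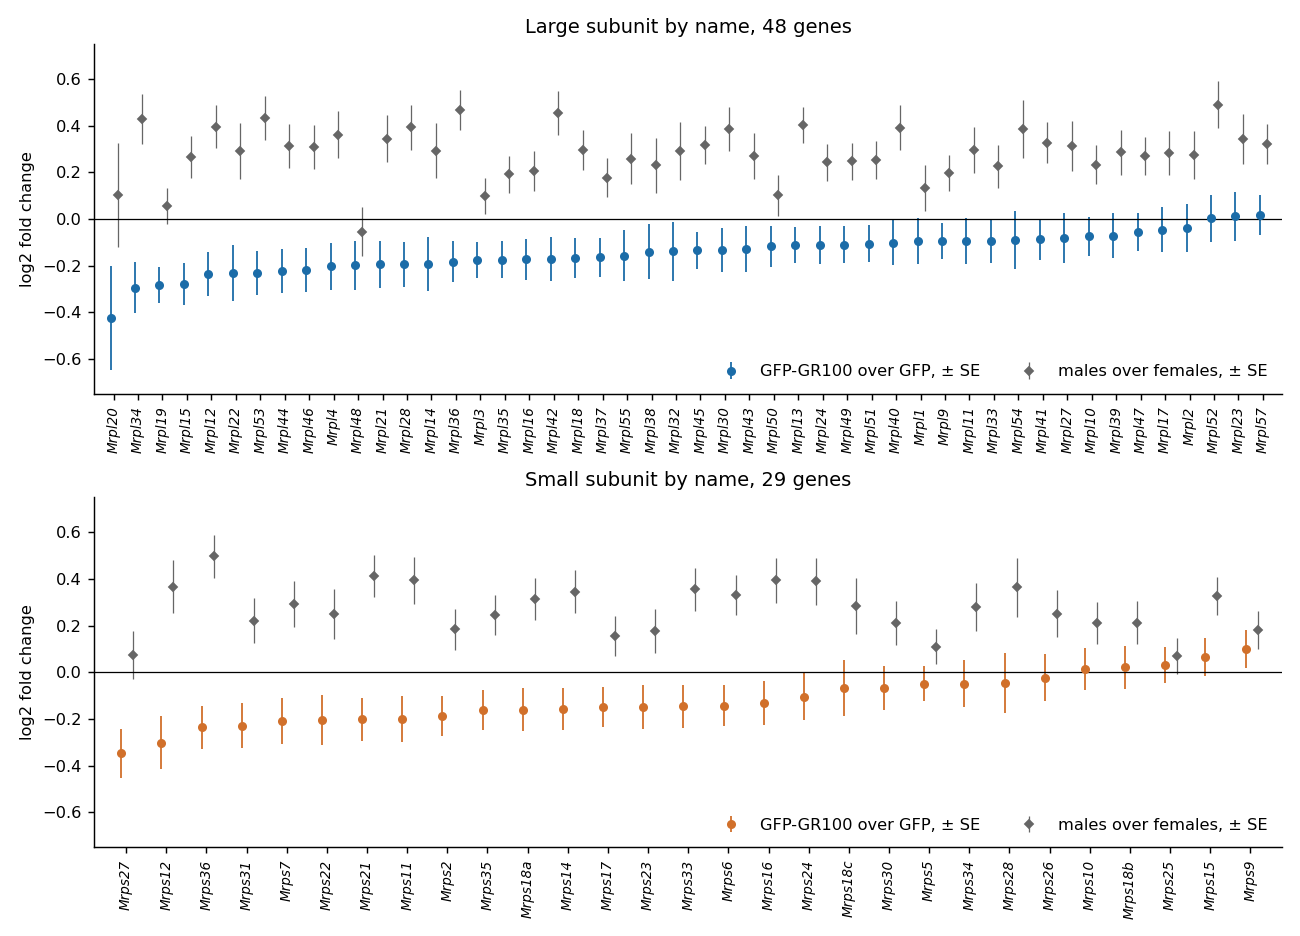
Log2 fold change ± SE of GFP-GR100 over GFP (circles) and of males over females (grey diamonds) for the 48 large subunit members (top) and 29 small subunit members (bottom), ordered by the first. For GFP-GR100 over GFP, 69 of 77 lie under 0, and for males over females 76 of 77 lie above 0.

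Sex and weight were the other labels that varied. Each group had 2 females and 2 males. The labelled weights were 115.8, 119.1, 111.4 and 126.6 mg in GFP and 76.7, 74.1, 71.9 and 85.1 mg in GFP-GR100. These did not overlap, so weight cannot be told apart from group, and its part was not tested. With group in the model, 18 members were higher in males and 0 lower (edgeR, adjusted p), 11 of the large subunit and 7 of the small, where 1.84% of tested genes were called higher and 2.34% lower. The fold change was above 0 for 76 of 77, Mrpl48 at -0.05 being the exception, and 52.6% of tested genes were above 0. The median was 0.29 over all members, 0.29 over the large and 0.28 over the small subunit, against 0.02 over all tested genes. At an unadjusted p under 0.05, 63 members were higher and 0 lower, where 12.3% and 12.9% of tested genes were. All male libraries lay above all female libraries for 39 members, where 7.55% of tested genes did. The called genes sat just inside the threshold, with adjusted p from 0.0423 to 0.0499. Leaving out any 1 of GFP 1, GFP 2, GFP 3, GFP-GR100 1, GFP-GR100 2 or GFP-GR100 3 gave 0 calls, and at most 0.0422% of tested genes were then called higher. Leaving out GFP 4 gave 11 calls, and leaving out GFP-GR100 4 gave 43, with 2.42% and 4.53% of tested genes called higher.

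Mrps36 was the most different between the sexes in the small subunit, at 0.50 (SE 0.094, edgeR adjusted p 0.0423). In the large subunit Mrpl52 (0.49, SE 0.101), Mrpl36 (0.47, SE 0.088), Mrpl42 (0.45, SE 0.094) and Mrpl13 (0.40, SE 0.078) had that same adjusted p. Mrpl36, a small zinc-binding protein homologous to bacterial L36, had 17.8 and 16.0 CPM in the GFP females, 24.4 and 24.0 CPM in the GFP males, 16.4 and 14.4 CPM in the GFP-GR100 females and 21.5 and 19.5 CPM in the GFP-GR100 males. In both groups the males lay above all females. Other members called were Mrpl12 (0.40), Mrpl28 (0.39), Mrpl30 (0.39), Mrpl34 (0.43), Mrpl40 (0.39), Mrpl45 (0.32), Mrpl53 (0.43), Mrps11 (0.39), Mrps15 (0.33), Mrps16 (0.39), Mrps21 (0.41), Mrps24 (0.39) and Mrps33 (0.35). Mrpl45 is the protein that anchors the ribosome to the inner membrane.

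The difference between the sexes went with listed gene length, which is short for these genes: the median was 1722 bases for members and 3046 for all tested genes. Among other genes of 8 CPM or more, the median male over female fold change was 0.31 under 1000 bases, 0.22 from 1000 to 2000, 0.07 from 2000 to 4000, -0.09 from 4000 to 8000 and -0.25 above that. The members' medians in the same classes were 0.39 (13 genes), 0.30 (28), 0.28 (20), 0.18 (14) and 0.24 (2). Across the members, length and the sex difference had a Spearman rho of -0.57 as a description over 77 genes of the same libraries. With each library's trend on length as an offset, an alternative chosen after seeing the data, 1 member was called higher in males and the median was 0.20. Of the 79 cytosolic ribosomal proteins, 51 were higher in males (median 0.41), as were 33 of the 74 respiratory chain subunits (median 0.34). Summed red blood cell markers were 90.3 to 150.6 CPM in females and 179.9 to 362.2 CPM in males, with 2 of 5 called higher. Their part in the result was not tested.

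For GFP-GR100 over GFP, the medians by length spanned a narrower range. Other genes of 8 CPM or more had medians of -0.07, -0.09, -0.08, -0.05 and -0.01 in the 5 length classes, and the members -0.14, -0.15, -0.14, -0.09 and -0.13. The rho across members was 0.16. With the length offset, the members' median was -0.12 and 0 were called.

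**Figure D4:**
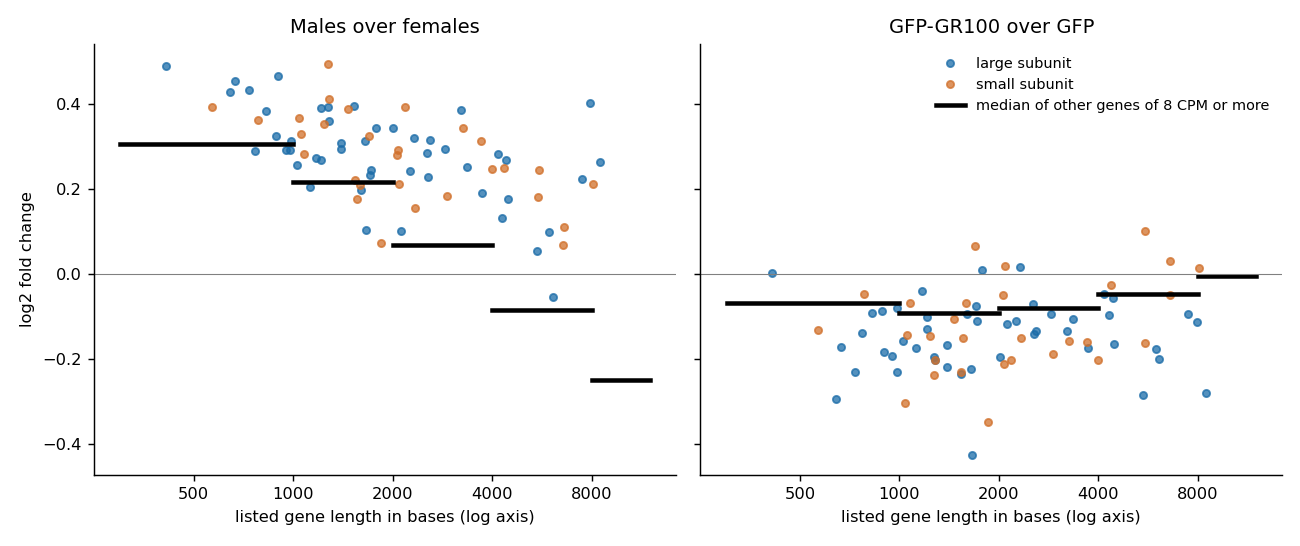
Log2 fold change of males over females (left) and of GFP-GR100 over GFP (right) against listed gene length in bases (log axis), 1 point per member, with black bars for the median of other genes of 8 CPM or more in each length class. The left bars go from 0.31 in the shortest class to -0.25 in the longest, and the right bars stay between -0.09 and -0.01.

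The effect of GFP-GR100 was then taken within each sex, by adding the product of the factors to the model. In males 4 of 77 members were called lower, Mrps12, Mrps27, Mrps7 and Mrpl4 (edgeR, adjusted p). This share is near the 3.78% of tested genes called lower. No member was higher, where 5.56% of tested genes were. In all, 73 of 77 members were under 0 in males (49.7% of tested genes) with a median of -0.22 (0.00 over all tested genes), and 27 were lower and 0 higher at an unadjusted p under 0.05, where 12.5% and 14.5% of tested genes were. The median was -0.20 over the large subunit and -0.23 over the small. In females 0 members were called, against 0.0524% of tested genes lower and 0.829% higher. The female median was -0.05, beside -0.04 over all tested genes, with 54 of 77 members under 0, where 57.1% of tested genes were. At an unadjusted p under 0.05, 1 member was lower and 0 higher in females, where 4.3% and 5.11% of tested genes were.

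Mrps12 carries the loop at the decoding centre that checks codon pairing, and is the homologue of the bacterial protein changed in streptomycin resistance (ENSMUSG00000045948, chr7:28739641-28741820 on mm10). Its level was 45.0 and 38.4 CPM in the GFP males and 28.9 and 27.1 CPM in the GFP-GR100 males. The females had 26.4 and 27.1 CPM in GFP and 27.7 and 24.8 CPM in GFP-GR100. The GFP males stood apart and the other 6 libraries lay together. The log2 fold change was -0.57 (SE 0.113) in males, with an edgeR adjusted p of 0.0113, and -0.03 (SE 0.114) in females, with an adjusted p of 0.955.

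Mrps27 was at 29.9 and 30.5 CPM in the GFP males and 22.5 and 18.8 CPM in the GFP-GR100 males, a log2 fold change of -0.55 (SE 0.119, edgeR adjusted p 0.0169). In females it was at -0.15 (SE 0.119, adjusted p 0.720). Here the GFP-GR100 males, not only the GFP males, were at one end of the range. GFP-GR100 4 had the lowest value of the 8 libraries.

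Mrps7 binds the RNA of the small subunit head near the exit site (ENSMUSG00000046756, chr11:115603925-115608036). It had 52.1 and 45.3 CPM in the GFP males, 37.6 and 35.3 CPM in the GFP-GR100 males and 33.6 to 35.3 CPM in the 4 females. The fold change in males was -0.42 (SE 0.106, edgeR adjusted p 0.0301). Mrpl4 lines the exit tunnel of the large subunit (ENSMUSG00000003299, chr9:21002737-21008835). It had 47.5 and 43.4 CPM in the GFP males, 34.4 and 33.3 CPM in the GFP-GR100 males and 28.7 to 31.9 CPM in the females, or -0.43 (SE 0.106, adjusted p 0.0279). In both genes the GFP males were highest, and the GFP-GR100 males lay at or above the top of the females.

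**Figure D5:**
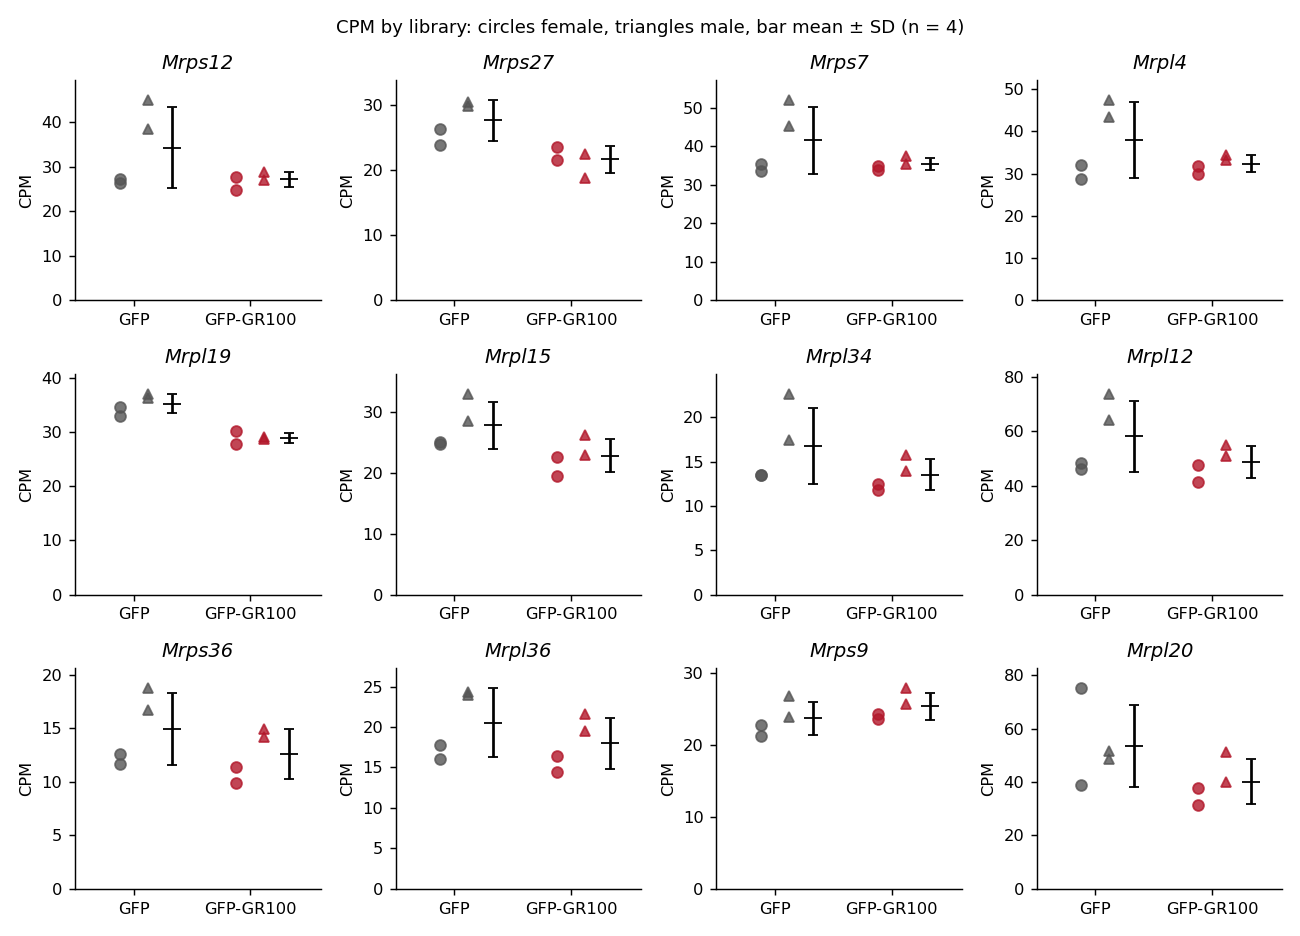
CPM by library for 12 members, with circles for females, triangles for males, grey for GFP and red for GFP-GR100, and bars for mean ± SD (n = 4). For Mrps12, Mrps7 and Mrpl4 the 2 GFP males lie above the other 6 libraries, and for Mrpl19 and Mrps27 the groups do not overlap.

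The difference between the effects in males and females was tested directly and no member passed, where 0.00953% of tested genes were called with a lower and 0.0429% with a higher effect in males. DESeq2 and limma-voom also called 0 members, and 10 had an unadjusted p under 0.05 with a lower effect in males and 0 with a higher one, where 7.06% and 9.36% of tested genes did. The difference was under 0 for 67 of 77 members, against 46.5% of tested genes. The smallest p were those of Mrps12 (-0.55, SE 0.160, edgeR adjusted p 0.142), Mrpl4 (-0.45, SE 0.150, adjusted p 0.172) and Mrpl38 (-0.52, SE 0.176, adjusted p 0.179), a protein of the central protuberance. So the fall in males was not shown to differ from the effect in females. It also depended on single libraries: without GFP-GR100 4 no member was called in males, without GFP 3, GFP-GR100 1 or GFP-GR100 2 the calls were Mrps12 and Mrps27, and without GFP-GR100 3 there were 7. The share of all tested genes called lower in males was not taken in these fits, so their counts cannot be set against it. GFP-GR100 4 also stood apart in tissue markers. It had 27.4 CPM of the thalamus marker Tcf7l2, against 4.45 to 8.08 CPM in the other libraries. Its sums of excitatory neuron (3784 CPM) and hippocampal (171 CPM) markers were the lowest. In males, all 7 excitatory neuron markers were under 0 for GFP-GR100 over GFP (median -0.30, 3 with an unadjusted p under 0.05), and the difference between the sexes was under 0 for all 7 (median -0.43, 4 at that p). The part of these markers in the male result was not tested. The share of counts at ribosomal RNA loci was 3.80% and 3.54% in the GFP males and 8.77% and 9.83% in the GFP-GR100 males, and its part in the result was not tested.

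Cell type markers also differed between the groups. Of 8 microglia markers 6 rose in GFP-GR100, with sums of 339.2 to 459.4 CPM in GFP and 583.7 to 650.6 CPM in GFP-GR100. Of 6 choroid plexus markers 1 fell (126.3 to 361.6 against 31.7 to 87.1 CPM), as did 2 of 5 ependymal markers (13.5 to 23.6 against 10.7 to 12.5 CPM) and 1 of 3 of oligodendrocyte precursors (136.5 to 156.0 against 116.4 to 138.2 CPM). At an unadjusted p under 0.05 (edgeR), all 6 choroid plexus markers were lower (median -1.98), as were all 5 ependymal markers (median -0.82). Of all tested genes, 7.37% were lower at that p. Excitatory neuron markers summed to 4719 to 5247 CPM in GFP and 3784 to 5684 CPM in GFP-GR100, with 0 of 7 called. Of 6 oligodendrocyte markers 0 were called, all 6 were under 0 for GFP-GR100 over GFP (median -0.28, 3 with an unadjusted p under 0.05) and all 6 above 0 for males over females (median 0.28, 4 at that p). Their sums were 6124 to 8029 CPM in GFP and 5063 to 7943 CPM in GFP-GR100. No listed marker in the table was at 0. The part of these markers in the members' values was not tested.

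Genes that work with the mitochondrial ribosome were counted in the same fit of GFP-GR100 against GFP. Of 6 tested ribosomal proteins with other names, 0 were called and all 6 were under 0 (median -0.13). The one with the smallest p was Aurkaip1, at 53.4 ± 13.3 CPM in GFP and 44.3 ± 5.84 CPM in GFP-GR100 (SD, n = 4 each), -0.24 (edgeR adjusted p 0.291). Of 25 assembly factors 0 were called (median -0.09), with the rRNA methyltransferase Ftsj2 at -0.29 (adjusted p 0.241). Of 15 mitochondrial translation factors 1 rose and 0 fell (median -0.10).

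Of 17 mitochondrial aminoacyl-tRNA synthetases 0 were called (median -0.08), nor were any of 15 genes of mitochondrial DNA copying and transcription (median -0.03) or 12 regulators of mitochondrial biogenesis (median -0.01). Of 16 chaperones and proteases 0 were called and 15 were under 0 (median -0.11). Hspd1, the mitochondrial chaperonin, went from 152.2 ± 3.29 to 123.3 ± 9.88 CPM (SD, n = 4 each), -0.30 (edgeR adjusted p 0.0912), with every GFP-GR100 library below every GFP library. The 74 respiratory chain subunits had 0 calls, 73 under 0 and a median of -0.15, and in males 5 fell. The 79 cytosolic ribosomal proteins had 0 calls, 51 under 0 and a median of -0.02. No test set these lists against the members.

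The members were also split by promoter letters and by neighbouring genes, as a description with no test. The median GFP-GR100 over GFP fold change was -0.13 for 13 members with NRF1 letters and -0.15 for 55 without, -0.15 for 24 with ETS letters and -0.14 for 44 without, and -0.17 for 8 with YY1 letters and -0.13 for 60 without. The 33 genes that face a member include the members Mrpl46 and Mrps11, which face each other. They had a median of -0.09, with 25 under 0 and 0 called. Their male over female median was 0.08, with 3 called higher, Mrps11 among them. Another gene of at least 1 CPM overlaps 32 members, 25 of them only on the opposite strand, and their median was -0.13 against -0.14 for the 45 without such an overlap. The table also holds 4 pseudogenes of members, Mrpl23-ps1, Mrpl48-ps, Mrps36-ps2 and Mrps36-ps1, with 1729, 1624, 411 and 108 counts in total, so reads of Mrpl23, Mrpl48 and Mrps36 may be split with them.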

How the data were processed

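Total RNA of cortex and hippocampus was sequenced from both ends with a stranded kit, per the labels' protocols. The deposited counts per gene are whole numbers, made with TopHat2 2.1.0 on mm10 per the submitters' processing notes, which also name CASAVA, DESeq2 and R 3.4.1. For the gene counter, the annotation and the use of strand, the sources used here give nothing. The RPKM values deposited by the authors are scaled to summed gene counts, as the counts and listed lengths gave library totals with ratios of 1.00027 to 1.00028.

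Counts were fitted with edgeR 4.0.16 in R 4.3.3: filterByExpr on group (minimum count 10, minimum total 15), TMM, robust quasi-likelihood test with sex and group, and Benjamini-Hochberg adjustment over 20987 genes at 0.05. Effects within a sex came from a model with their product. A log2 fold change has GFP in the denominator, and SE come from the fold change and F. With 3 counts the floor is 0.0337 to 0.0455 CPM per library. The scripts were tested on simulated data. Libraries of 1 group differed by more than sampling noise (lowest chi-square per degree of freedom 16.7). Each library is a different mouse, and all 8 libraries enter 1 estimate of the spread.

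Alternatives were DESeq2 1.42.0, limma-voom and limma-trend on log2(RPKM + 0.1) or log2(RPKM + 1) (limma 3.58.1), no filter, median-of-ratios size factors, genes with a mean of at least 1 CPM, no sex covariate, the share of counts at ribosomal RNA loci (Yam1, AY036118 and Lars2) as covariate, structural subunits, a length trend as offset and leaving out libraries. GENCODE M21 gave neighbours (76 members found, 49 with the deposited start and end) and RefSeq the promoters. Named genes were the 3 smallest p per subunit and direction, the 3 highest and 3 lowest RPKM per subunit, the 3 smallest p for the difference between sexes, called members, S18 paralogues, Mrps30, Mrps36 and Mrpl12, and per list up to 3 called genes or the smallest p. The called translation factor is not reported here. Members, lists and this rule were chosen with earlier results of these data known.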

Additional observations from a re-analysis of the deposited data

Results flagged for a closer look

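Mrps10, a small subunit protein homologous to bacterial S10, had 24.5 CPM in GFP 3, far above the other 3 GFP libraries, which lay between 19.7 and 20 CPM. The gap to the nearest library was 0.940 of the range of the group. GFP-GR100 libraries had 19.1 to 24.4 CPM. The 28 named members gave 56 groups of 4 libraries, and 1 was marked in this way, while chance marks about 1 in 20 groups.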

How the results depend on the processing

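No paired analysis was possible because the replicate numbers follow accession order and every library is another mouse. For GFP-GR100 against GFP, 0 members were higher under every alternative run. The number lower was 2 with no filter (Mrpl20 and Mrps27), 1 with DESeq2 (Mrpl19), 2 with the ribosomal RNA share as covariate (Mrpl19 and Mrps27) and 0 under the others. The share of all tested genes called lower also rose, from 0.324% to 1.12% with no filter, 0.953% with DESeq2 and 1.08% with that covariate. With no filter Mrps27 was at -0.33 (edgeR adjusted p 0.0460), and with the ribosomal RNA share as covariate Mrpl19 was at -0.29 (0.0392) and Mrps27 at -0.36 (0.0246). Medians stayed under 0 for all members and both subunits under every alternative. They were -0.0322 (all), -0.0278 (large) and -0.0339 (small) with GFP 3 and GFP-GR100 4 left out, beside -0.0015 over all tested genes. Leaving out 1 library gave -0.16 to -0.07 over all members and -0.03 to 0.01 over all tested genes. With limma-trend on RPKM the medians over all members were -0.08 (pseudocount 0.1) and -0.07 (pseudocount 1), beside 0.04 and 0.02 over all tested genes. The number higher in males was 34 with DESeq2, 1 with the length offset, 44 with the ribosomal RNA share as covariate, 8 with GFP 3 and GFP-GR100 4 left out, and 0 to 43 when 1 library was left out. The share of all tested genes called higher moved with it, to 5.87% with DESeq2, 0.0429% with the length offset, 6.31% with the ribosomal RNA share and 0.725% without those 2 libraries. The number lower in GFP-GR100 males was 8 with the length offset, 10 with no filter, and 0 to 7 when 1 library was left out. The share of all tested genes called lower in males was not taken under these settings, so the counts in males cannot be set against it. These alternatives in males and the length offset were chosen after seeing the data. So were those for the sex difference other than DESeq2, limma-voom and single libraries left out. Depth did not limit detection of any member, all of which had at least 479 counts in each library.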
